A study of Mus musculus with 14 samples.

Results

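The clustered protocadherins were taken as every gene of the deposited count table whose symbol begins with Pcdha, Pcdhb or Pcdhg. These were 59 of 24015 genes, made up of 13 alpha, 22 beta, 12 gamma-A, 7 gamma-B and 5 C-type genes (Pcdhac1, Pcdhac2, Pcdhgc3, Pcdhgc4 and Pcdhgc5). RNA was counted in 14 libraries of mouse pluripotent cells, 2 in each of 7 groups, which the series design text calls biological duplicates. Embryonic stem cells (ESC, CD1/JF1, derived from blastocysts) were kept in LIF on feeder cells, and epiblast stem cells (EpiSC, CD1/JF1, also from blastocysts) in bFGF medium. EpiSC were also moved into LIF medium that held MM401, a compound that blocks Mll1, the histone methyltransferase encoded by Kmt2a, at 100 µM. They were sampled after 3 days (MM401 day 3) and after 6 days at passage 2 (MM401 P2), both labelled CD1/JF1. Reverted lines (rES), labelled CD1-deltaTSIX/JF1 and held at 25 µM MM401 from passage 3 on, were sampled at passage 6 and passage 30. A last group of the same label was at passage 30 without MM401. LIF medium and the inhibitor began at the same time, no EpiSC in LIF medium alone were included, and the reverted lines differ from ESC and EpiSC in genotype label, so in each comparison that crosses those differences their effects cannot be told apart.

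Clustered protocadherins are single-pass adhesion proteins of the cadherin superfamily that pair with identical proteins on an opposing membrane. They are best known from neurons, where each cell switches on its own small set of variable genes through promoter choice, guided by CTCF, cohesin and DNA methylation, and so carries a surface identity that lets its branches avoid each other. In the alpha and gamma clusters each variable exon is spliced to constant exons that the whole cluster shares and that encode a common cytoplasmic tail. Beta genes stand alone, each with its own coding exon and no shared tail. The C-type genes at the ends of the alpha and gamma clusters are regulated apart from the other variable genes and tend to be used more evenly from cell to cell.

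The shared exons bear on how the counts can be read. In the GENCODE M21 annotation, 56 of the 59 genes matched a single gene of the same name (not Pcdha4-g, Pcdha10 and Pcdha11). The bases that belonged to one gene alone made up 40.08% to 46.65% of the exons of the matched alpha genes other than Pcdha4 (1.73%), 54.15% to 60.51% of the gamma-A and gamma-B genes, 47.22% to 57.82% of the C-type genes and 90.33% to 100% of the beta genes. Pcdha3 had 0 counts in 12 libraries in which Pcdhac2 had 29 to 167, so reads of the shared alpha exons were not credited to every alpha gene. The labels do not say where those reads went instead, and counts of alpha and gamma genes may be lower than their RNA for this reason. Exons of 12 members lie under an antisense gene in that annotation, among them Pcdhgc3 (BC037039) and Pcdhga10, Pcdhgb7, Pcdhga11 and Pcdhga12 (Gm26672). Whether the counting used strand is not stated, so reads of these members and of their antisense partners cannot be told apart. Variable exons also resemble one another, and how reads with several matches were treated is not given either.

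Total counts lay between 20831588 and 23677089 in the EpiSC, ESC and reverted libraries. The treated EpiSC were sequenced more deeply, to 113221270 and 116086115 counts at MM401 day 3 and 74952496 and 80383376 at MM401 P2. A filter on low counts, equal to about 0.445 CPM of the unadjusted library total in 2 libraries, kept 16247 genes and 44 of the 59 members. All 12 gamma-A and all 7 gamma-B genes passed, as did 4 of 5 C-type, 14 of 22 beta and 7 of 13 alpha genes. The other 15 were Pcdha1, Pcdha2, Pcdha4, Pcdha4-g, Pcdha11, Pcdha12, Pcdhac1, Pcdhb1, Pcdhb4, Pcdhb6, Pcdhb8, Pcdhb9, Pcdhb10, Pcdhb12 and Pcdhb13, and Pcdha4-g had no count in any of the 14 libraries. Of the 44, 9 reached the limit in both libraries of EpiSC and of no other group (all 7 alpha genes that passed, Pcdhb2 and Pcdhb7). These 9 could be tested only through EpiSC, so each comparison with EpiSC is also given for the other 35. Among the 9, Pcdhb7 nevertheless had its highest mean in MM401 P2 (0.525 CPM, against 0.451 in EpiSC). Pcdhb5 and Pcdhb11 reached the limit in both libraries of MM401 P2 alone and remain among the 35. Summed naive markers (Tfcp2l1, Zfp42, Klf4, Esrrb, Tbx3 and Nr0b1) were at 501 CPM in EpiSC and 1987 to 4565 CPM in the other groups, and summed primed markers were highest in EpiSC (1617 CPM), with none of either list at 0 in any group. The primed sum was carried by Grb10 and Dnmt3b, and 2 of its 6 genes, Otx2 and Fgf5, were higher in ESC than in EpiSC. Levels are given as CPM, counts scaled to the library total after its adjustment by the TMM factor (0.9657 to 1.0944). A gene is said to have risen or fallen where its adjusted p was under 0.05 in edgeR's quasi-likelihood test with Benjamini-Hochberg adjustment, the source of each adjusted p given here. Log2 fold changes are followed by their standard error, and means of CPM by the SD of 2 libraries.

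**Figure D1:**
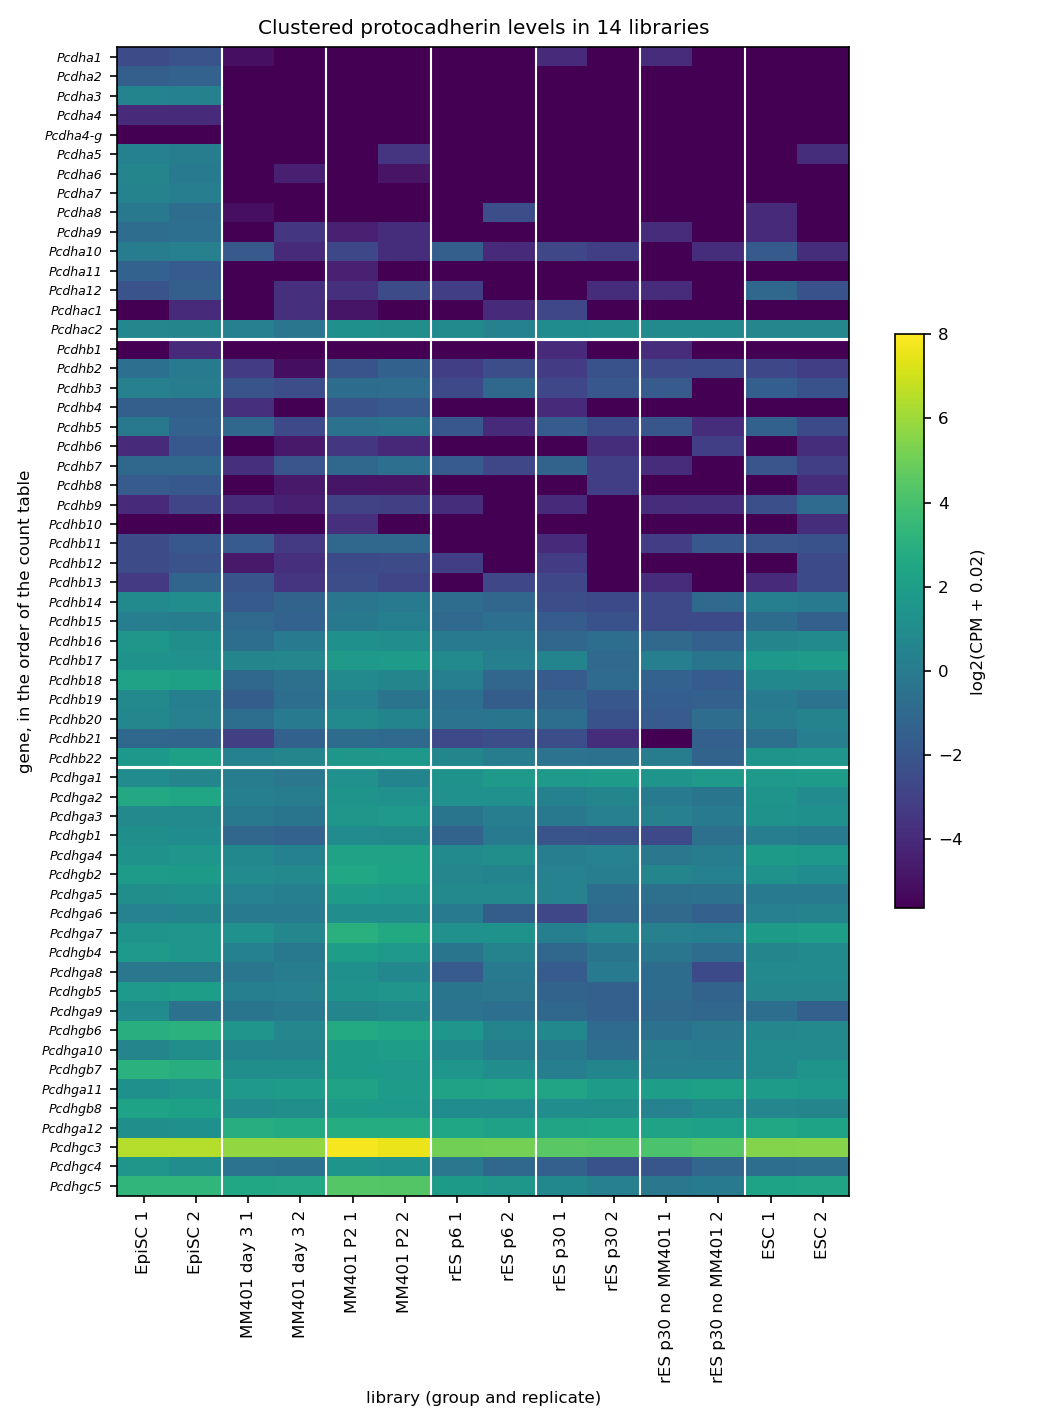
Level of all 59 members (rows, in the order of the count table) in the 14 libraries (columns, grouped by white lines), as log2(CPM + 0.02). Pcdhgc3 is the brightest row in all libraries, and most alpha genes are above the floor of the scale in the 2 EpiSC libraries but at or near it in the other 12.

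Of the 59 members, 30 had their highest group mean in EpiSC and 21 in MM401 P2. The lowest mean was in a single reverted group for 37, in another group for 6, and shared by several groups for 16, mostly at 0 counts. Summed over all 59, the level was 195.9 ± 1.97 CPM (SD, n = 2) in EpiSC, 102.6 ± 2.08 in MM401 day 3, 325 ± 25.3 in MM401 P2 and 109.8 CPM in ESC. It was 83.7 CPM in rES passage 6, 58.4 in rES passage 30 and 51.6 without MM401. A single gene, Pcdhgc3, supplied 45.8% of that sum in EpiSC, 53.1% in MM401 day 3, 65.0% in MM401 P2, 41.1% in ESC and 37% to 41% in the reverted groups. In bulk libraries such as these, fewer cells carrying a transcript and less of it per cell cannot be told apart.

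The sets moved differently. Alpha genes summed to 8.59 ± 0.77 CPM in EpiSC and to 0.0934 to 0.552 CPM in the other 6 groups. Gamma-B genes were likewise highest in EpiSC, at 32.7 ± 0.946 CPM, against 25.9 in MM401 P2 and 6.32 to 11.9 in the other 5 groups. Gamma-A genes kept within a narrower range, from 18.4 CPM in rES passage 30 without MM401 to 43.2 CPM in MM401 P2, with 26.6 in EpiSC and 29.8 in ESC. Among the beta genes, those numbered 14 to 22 carried most of the signal, at 19.4 CPM of 24.0 in EpiSC and 13.7 of 15.3 in ESC. In the plot of summed levels the points of the alpha genes outside EpiSC are the least certain, since they rest on 1 to 30 counts a library.

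**Figure D2:**
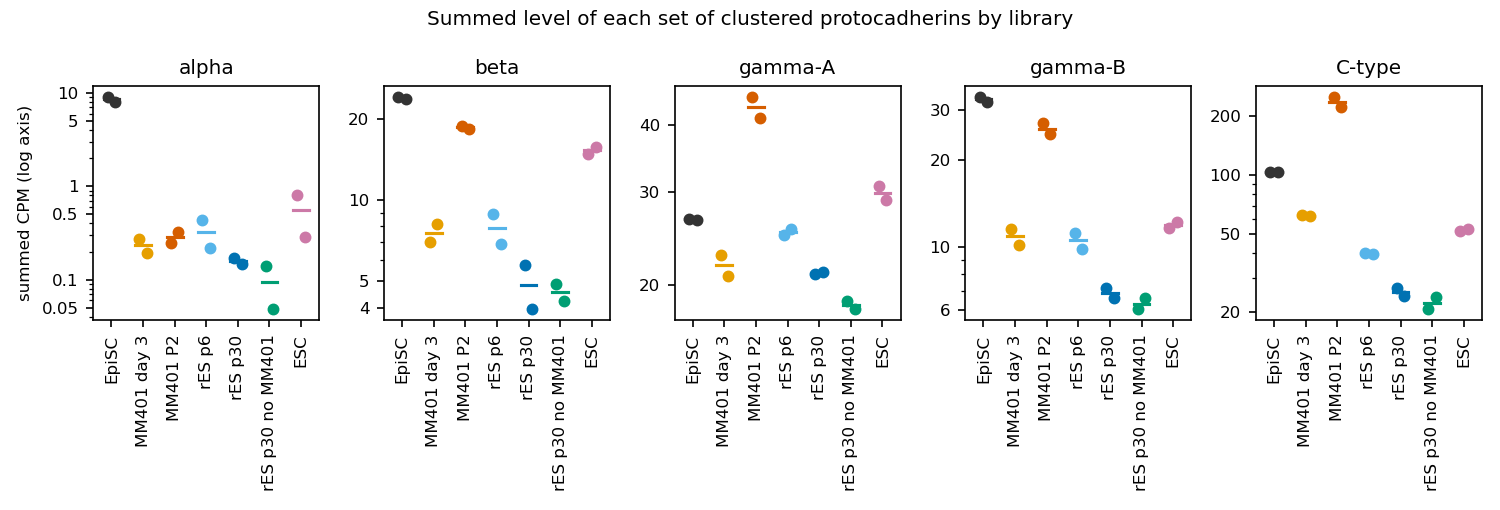
Summed CPM of the alpha, beta, gamma-A, gamma-B and C-type genes on log axes, 1 point for each library and a bar at the mean of each group of 2. EpiSC stand highest for alpha (8.59 CPM), beta and gamma-B genes, and MM401 P2 for gamma-A (43.2 CPM) and C-type genes.

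The alpha genes were counted mainly in EpiSC. The 2 EpiSC libraries held 224 and 195 alpha counts from 12 of the 13 genes each. The ESC libraries held 18 and 6, the MM401 day 3 libraries 30 and 22, the MM401 P2 libraries 18 and 26, and the 6 reverted libraries 1 to 9. Of the 30 counts in MM401 day 3 replicate 1, 28 were of Pcdha10. The MM401 day 3 libraries were about as poor in alpha counts as the others although they were sequenced most deeply. Thinned in expectation to the shallowest library, they would hold 5.52 and 3.95 alpha counts against 208 and 183 in EpiSC.

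Pcdha3, a variable gene near the start of the cluster, had 35 and 31 counts in EpiSC (1.43 and 1.28 CPM) and 0 in the other 12 libraries. With a floor of 3 counts over the 2 libraries of a group, it was at least 19.3-fold lower in ESC, at least 100-fold lower in MM401 day 3, at least 69.3-fold lower in MM401 P2 and at least 19.9-fold lower in rES passage 30. The bounds differ because the depths do, and they cover counting error only. Between duplicates, members with moderate counts scattered by more than that. The chi-square per degree of freedom was 5.87 in MM401 day 3 and 2.74 in MM401 P2, so the bounds there may be too high. Pcdha7, with 60 counts in EpiSC and none in those 4 groups, was at least 17.6-fold lower in ESC and at least 91.2-fold lower in MM401 day 3. Pcdha5 had 57 counts in EpiSC, 1 in ESC and 5 in MM401 P2, which gives a ratio of 50.1 over ESC with a counting interval (95%) of 8.63 to 2010. Pcdha10 was the alpha gene that stayed above 0 most often: it had 26 and 29 counts in EpiSC, 28 and 5 in MM401 day 3, 10 and 4 in MM401 P2, 6 and 1 in ESC and 0 to 7 in the reverted libraries. It fell by 2.90 ± 0.57 on the log2 scale in MM401 day 3 (adjusted p = 1.92e-05). All 7 tested alpha genes fell in each of the 4 comparisons with EpiSC, which the filter makes likely, since each had reached its limit in EpiSC alone. By DESeq2, Pcdha8 was not called at MM401 day 3 or MM401 P2 (adjusted p = 0.241 and 0.183). Among those that did not pass, Pcdha2 had 8 and 9 counts in the EpiSC libraries and 0 in the other 12, and Pcdha11 had 9 and 7 in EpiSC, 2 in MM401 P2 and 0 elsewhere. Pcdha12 was spread more evenly, with 5 and 8 counts in EpiSC and 10 and 4 in ESC.

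Neural markers were also highest in EpiSC. The 15 listed genes summed to 1131 CPM there and to 384 to 632 CPM in the other groups, with Nes, an intermediate filament of neural progenitors, at 362.7 CPM in EpiSC and 36.5 to 76.2 elsewhere, and Sox1, an early neural transcription factor, at 95.4 CPM against 4.37 to 21.1. In ESC against EpiSC, 10 of 14 tested neural markers fell, with Nes, Sox1, Stmn2 and Map2 at the smallest adjusted p, and 4 rose. None was at 0 in any group except Dcx in rES passage 30. The part of such cells in the alpha signal was not tested.

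C-type genes summed to 104 CPM of 195.9 in EpiSC, 62.1 of 102.6 in MM401 day 3 and 237 of 325 in MM401 P2, and to less than the other members together in ESC and the reverted groups. Pcdhgc3, a gamma C-type gene whose protein is known from many tissues outside the brain, was at 89.2 and 90.4 CPM in EpiSC, 54.6 and 54.3 in MM401 day 3, 225.2 and 197.6 in MM401 P2, and 44.7 and 45.7 in ESC. The reverted libraries ranged from 17.7 to 34.8 CPM. No group overlapped another, although at passage 30 the higher library without MM401 (20.76 CPM) lay just under the lower one with it (20.82 CPM). Per kilobase of exon that belonged to it alone, the level of Pcdhgc3 was 35.0 CPM in EpiSC, against 3.88 for Pcdhgc5, the next highest of the C-type genes, and 3.14 for Pcdhgb6, the highest gamma-B gene.

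Pcdhgc5 had the same order of groups at the top, with 10.2 and 10.2 CPM in EpiSC, 5.83 and 6.00 in MM401 day 3, 21.4 and 20.5 in MM401 P2, 4.79 and 5.07 in ESC and 0.877 to 3.50 in the reverted libraries. Pcdhgc4, which neurons need for survival during development, was lower, at 2.50 ± 0.617 CPM in EpiSC and 2.54 ± 0.187 in MM401 P2, and at 0.195 to 0.862 CPM in the other 10 libraries. Pcdhac2, the alpha C-type gene known from serotonergic neurons, differed from these 3. It was at 1.54 CPM in EpiSC, 1.01 in MM401 day 3, 2.17 in MM401 P2, 1.56 in ESC and 1.54 to 2.02 in the reverted groups, and it was the alpha-cluster gene detected in all 14 libraries with at least 29 counts. Pcdhac1 had 0 to 6 counts a library and was not tested.

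**Figure D3:**
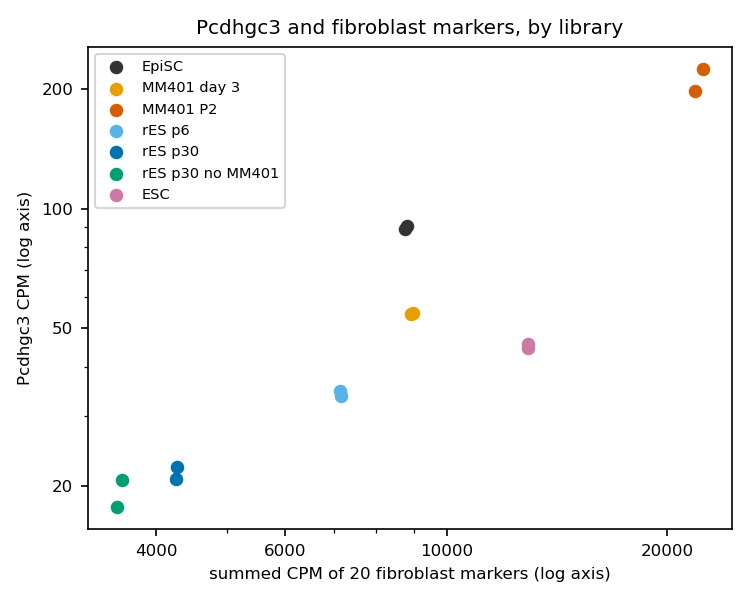
Pcdhgc3 (CPM) against the summed CPM of 20 fibroblast markers in each library, both on log axes, with 1 point for each of the 14 libraries. MM401 P2 is highest on both axes (211.4 CPM of Pcdhgc3). EpiSC (89.8 CPM of Pcdhgc3) and MM401 day 3 (54.4 CPM) have close marker sums. Of the 20 markers, 6 were higher and 10 lower at day 3 than in EpiSC.

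Fibroblast markers, which feeder cells would bring, moved with Pcdhgc3 in part. The 20 listed genes summed to 8783 CPM in EpiSC, 8954 in MM401 day 3, 22080 in MM401 P2, 12890 in ESC, 7157 in rES passage 6, 4269 in rES passage 30 and 3567 without MM401, and none was at 0 in any group. Per 100 CPM of these markers, Pcdhgc3 stood at 1.02 and 1.03 CPM in EpiSC, 0.608 in both MM401 day 3 libraries, 1.01 and 0.906 in MM401 P2, 0.346 and 0.355 in ESC and 0.473 to 0.578 in the reverted libraries. The close sums of EpiSC and MM401 day 3 hide markers that moved both ways, with 6 of the 20 higher and 10 lower at day 3. Those of smallest adjusted p were Lox (193.5 CPM in EpiSC and 509.7 at day 3) and Col3a1 (439.5 and 653.6), which rose. Dcn (248.2 and 148.6) and Mmp2 (259.8 and 160.3) fell. Equal sums therefore do not show equal numbers of fibroblasts. The higher sum in ESC was due to Fn1 (6485 CPM against 2432 in EpiSC), and 9 of the 20 markers, among them Postn and Dcn, fell in ESC while 11 rose. Without Fn1, a choice made after seeing the data, the markers summed to 6351 CPM in EpiSC, 6410 in ESC, 6913 in MM401 day 3, 18750 in MM401 P2 and 1855 to 3979 in the reverted groups. Per 100 CPM of that sum, Pcdhgc3 stood at 1.41 and 1.42 CPM in EpiSC, 0.696 and 0.713 in ESC, 0.792 and 0.783 in MM401 day 3 and 1.19 and 1.06 in MM401 P2. The reverted libraries then ranged from 0.847 to 1.2 CPM, against 0.473 to 0.578 with Fn1 included. Whether feeder cells supplied the Pcdhgc3 reads was not tested.

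Comparing the naive and primed reference cells, most members that changed were lower in ESC. Of the 44 tested, 26 fell and 3 rose, where 37.5% of all tested genes fell and 37% rose. In a fit of those 4 libraries alone 7 rose. Without the 9 genes that passed through EpiSC alone, 18 of 35 fell and the same 3 rose, namely Pcdhga12, Pcdhga1 and Pcdhga8. The median log2 fold change was -1.02 over the 44 and -0.73 over the 35, against 0 over all tested genes. All 7 gamma-B genes fell, with log2 changes from -2.30 to -0.70, whereas among the gamma-A genes 3 fell, 3 rose and 6 did not pass. Of the 14 tested beta genes 6 fell and none rose.

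Among the gamma-B genes, which encode variable adhesion proteins interspersed with the gamma-A genes along the array, Pcdhgb6 was at 7.75 and 8.38 CPM in EpiSC and 1.58 and 1.69 in ESC. It fell by 2.30 ± 0.34 (adjusted p = 8.34e-06). Pcdhgb7 went from 8.36 and 7.14 CPM to 1.81 and 2.66 and fell by 1.80 ± 0.21 (adjusted p = 5.16e-10). Both groups were clear of each other for these genes. Pcdhgb8 fell by 1.58 ± 0.23 (adjusted p = 7.57e-08) and Pcdhgb2 by 0.70 ± 0.22 (adjusted p = 0.00398, and 0.0631 without ESC replicate 2). Pcdhgc3 fell by 0.99 ± 0.06 (adjusted p = 1.13e-17), Pcdhgc5 by 1.05 ± 0.13 (adjusted p = 5.94e-09) and Pcdhgc4 by 2.04 ± 0.35 (adjusted p = 2.53e-06), while Pcdhac2 differed by 0.02 ± 0.30 (adjusted p = 0.947). In the other direction, Pcdhga12, the last gamma-A gene before the C-type genes in the table, was at 2.16 and 2.27 CPM in EpiSC and 5.70 and 4.83 in ESC and rose by 1.25 ± 0.18 (adjusted p = 9.42e-08). Pcdhga1, the first, rose by 1.03 ± 0.27 (adjusted p = 0.000806), from 1.88 and 1.49 CPM to 3.16 and 3.72. Pcdhga11 differed by 0.43 ± 0.22 (adjusted p = 0.0754). The rise of Pcdhga8 (1.06 ± 0.42, adjusted p = 0.0229) was lost with total counts in place of scaling factors (adjusted p = 0.0542), with DESeq2 (adjusted p = 0.0637) and without either EpiSC library or either ESC library (adjusted p from 0.065 to 0.0965).

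After 3 days in LIF medium with MM401 the family was lower than in EpiSC for most members. Of the 44 tested members 35 fell and 2 rose, against 37.9% and 38.7% of all tested genes, and of the 35 without the EpiSC-only genes 26 fell and 2 rose. All 7 gamma-B genes, all 4 tested C-type genes, 11 of 14 beta genes and 6 of 12 gamma-A genes fell. The median log2 change was -1.39 over the 44 and -1 over the 35, against 0.00 over all tested genes. Of all calls among tested genes 50.6% were rises, and 38.6% with total counts in place of scaling factors. The summed fibroblast markers differed little between these groups (8783 and 8954 CPM), but 6 of 20 were higher and 10 lower. Their part in the falls was not tested.

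The named gamma and beta falls were of several sizes. Pcdhb18, a beta gene, went from 4.69 and 4.25 CPM in EpiSC to 0.476 and 0.638 and fell by 3.00 ± 0.27 (adjusted p = 7.32e-13, chosen after its values were seen). Pcdhga2, a gamma-A gene, went from 6.08 and 5.24 CPM to 1.17 and 1.10 and fell by 2.32 ± 0.20 (adjusted p = 1.52e-13, also chosen after its values were seen). Neither gene's groups overlapped. Pcdhgb6 fell by 1.90 ± 0.26 (adjusted p = 3.6e-06), Pcdhgb7 by 1.81 ± 0.17 (adjusted p = 2.6e-12) and Pcdhgb8 by 1.17 ± 0.18 (adjusted p = 2.43e-07). Among the C-type genes Pcdhgc4 fell by 1.86 ± 0.27 (adjusted p = 9.08e-08), Pcdhgc5 by 0.78 ± 0.11 (adjusted p = 2.86e-08) and Pcdhgc3 by 0.72 ± 0.05 (adjusted p = 2.45e-15).

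Only 2 members rose at day 3, both late gamma-A genes. Pcdhga12 was at 7.12 and 6.39 CPM against 2.16 and 2.27 in EpiSC, a rise of 1.61 ± 0.16 (adjusted p = 5.42e-12). Pcdhga11 was at 3.32 and 3.52 CPM against 2.24 and 2.72, a rise of 0.46 ± 0.19 (adjusted p = 0.0244) that was lost with total counts (0.163), DESeq2 (0.0819), libraries thinned to equal depth (0.157) and without EpiSC replicate 1 (0.223) or MM401 day 3 replicate 2 (0.0631, all adjusted p). The small falls of Pcdhac2 (-0.61 ± 0.27, adjusted p = 0.0379) and Pcdhga7 (-0.47 ± 0.21, adjusted p = 0.0349) were also lost after thinning (adjusted p = 0.345 and 0.301), with DESeq2 (0.0901 and 0.101) and without either EpiSC library or MM401 day 3 replicate 2.

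At passage 2, after 6 days, the family no longer stood below EpiSC as a whole. Of the 44 members 14 fell and 12 rose against EpiSC, where 33.8% of all tested genes fell and 42.1% rose. Of the 35 without the EpiSC-only genes, 6 fell and 12 rose. The 12 that rose were 8 gamma-A genes (Pcdhga3, Pcdhga4, Pcdhga5, Pcdhga7, Pcdhga8, Pcdhga10, Pcdhga11 and Pcdhga12), Pcdhgb2, Pcdhb17 and the C-type genes Pcdhgc3 and Pcdhgc5. Of all calls among tested genes 55.5% were rises, and 45.3% with total counts. The falls were in all 7 tested alpha genes, 4 beta genes, Pcdhga2, Pcdhgb7 and Pcdhgb8. The median change was 0.09 over the 44 and 0.22 over the 35, against 0.08 over all tested genes, and -7.00 over the 7 alpha genes (-5.24 with genes at 0 counts set to their bound).

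Pcdhgc3 rose by 1.23 ± 0.05 against EpiSC (adjusted p = 5.31e-23), Pcdhgc5 by 1.04 ± 0.10 (adjusted p = 7.94e-12), Pcdhga12 by 1.65 ± 0.16 (adjusted p = 3.6e-12) and Pcdhga7 by 1.37 ± 0.19 (adjusted p = 3.09e-08). Pcdhac2 differed by 0.50 ± 0.26 (adjusted p = 0.0756). Pcdhga7, a gamma-A gene, was at 7.95 and 6.31 CPM against 2.61 and 2.89 in EpiSC. Pcdhgb7 remained lower, at 3.49 and 3.32 CPM against 8.36 and 7.14 (-1.19 ± 0.17, adjusted p = 6.34e-08), and Pcdhgb8 fell by 0.44 ± 0.18 (adjusted p = 0.024), a call lost with DESeq2 (adjusted p = 0.062) and without EpiSC replicate 1 or MM401 P2 replicate 2 (adjusted p = 0.196 and 0.0798). Pcdhgb2 rose by 0.51 ± 0.18 (adjusted p = 0.0082), a call lost with total counts (adjusted p = 0.0552), with DESeq2 (adjusted p = 0.0874) and without EpiSC replicate 2 or MM401 P2 replicate 1 (adjusted p = 0.0778 and 0.063). Fibroblast markers rose against EpiSC as well, 19 of 20 with 0 falling by edgeR, by a median of 1.41 on the log2 scale. Their part in the higher members was not tested.

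Set directly against day 3, passage 2 was higher for 36 of the 44 members, where 37.5% of all tested genes were higher and 33.3% lower. By edgeR 0 members were lower, 0 were lower at an unadjusted p under 0.05 and 0 by DESeq2. All 14 beta, all 7 gamma-B, all 4 tested C-type and 10 of 12 gamma-A genes rose. The median was 1.23 over the 44 against 0.04 over all tested genes. Among the beta genes, Pcdhb5 and Pcdhb11 had passed the filter through MM401 P2 alone, which makes their rise likely. Pcdhac2 rose by 1.10 ± 0.22 (adjusted p = 2.59e-05) and Pcdhga1 by 0.95 ± 0.22 (adjusted p = 0.00021). Both calls were lost at equal depth (adjusted p = 0.0601 and 0.152), and that of Pcdhga1 also without MM401 P2 replicate 1 (adjusted p = 0.0528). Pcdhgc3 rose by 1.96 ± 0.05 (adjusted p = 8.37e-30), Pcdhgc5 by 1.82 ± 0.09 (adjusted p = 2.98e-20), Pcdhgc4 by 1.88 ± 0.24 (adjusted p = 8.93e-09), Pcdhgb1 by 2.17 ± 0.30 (adjusted p = 4.23e-08) Pcdhga3 by 1.91 ± 0.21 (adjusted p = 1.91e-10) and Pcdhb7 by 1.90 ± 0.49 (adjusted p = 0.00081). The 2 gamma-A genes that were above EpiSC already at day 3 were the ones that did not pass: Pcdhga12 differed by 0.04 ± 0.11 (adjusted p = 0.74) and Pcdhga11 by 0.28 ± 0.15 (adjusted p = 0.0883). Of the 7 alpha genes only Pcdha5 rose (adjusted p = 0.0441), at least 2.41-fold, on 5 counts against 0 that all came from MM401 P2 replicate 2.

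The fibroblast markers rose over the same interval. All 20 were higher at passage 2 than at day 3, by a median of 1.53 on the log2 scale, led by Mmp2, Dcn, Col3a1 and Col5a2. Per 100 CPM of their sum, all members other than Pcdhgc3 together were at 0.55 and 0.525 CPM at day 3 and 0.526 and 0.502 at passage 2. With Fn1 left out of the sum these values were 0.717 and 0.676 at day 3 and 0.622 and 0.589 at passage 2. Beta genes went from 0.0782 and 0.0911 to 0.0842 and 0.0841, and gamma-A genes from 0.254 and 0.234 to 0.202 and 0.189. Pcdhgc3 alone went from 0.608 in both libraries to 1.01 and 0.906. The part of fibroblasts in the rise of the family was not tested.

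**Figure D4:**
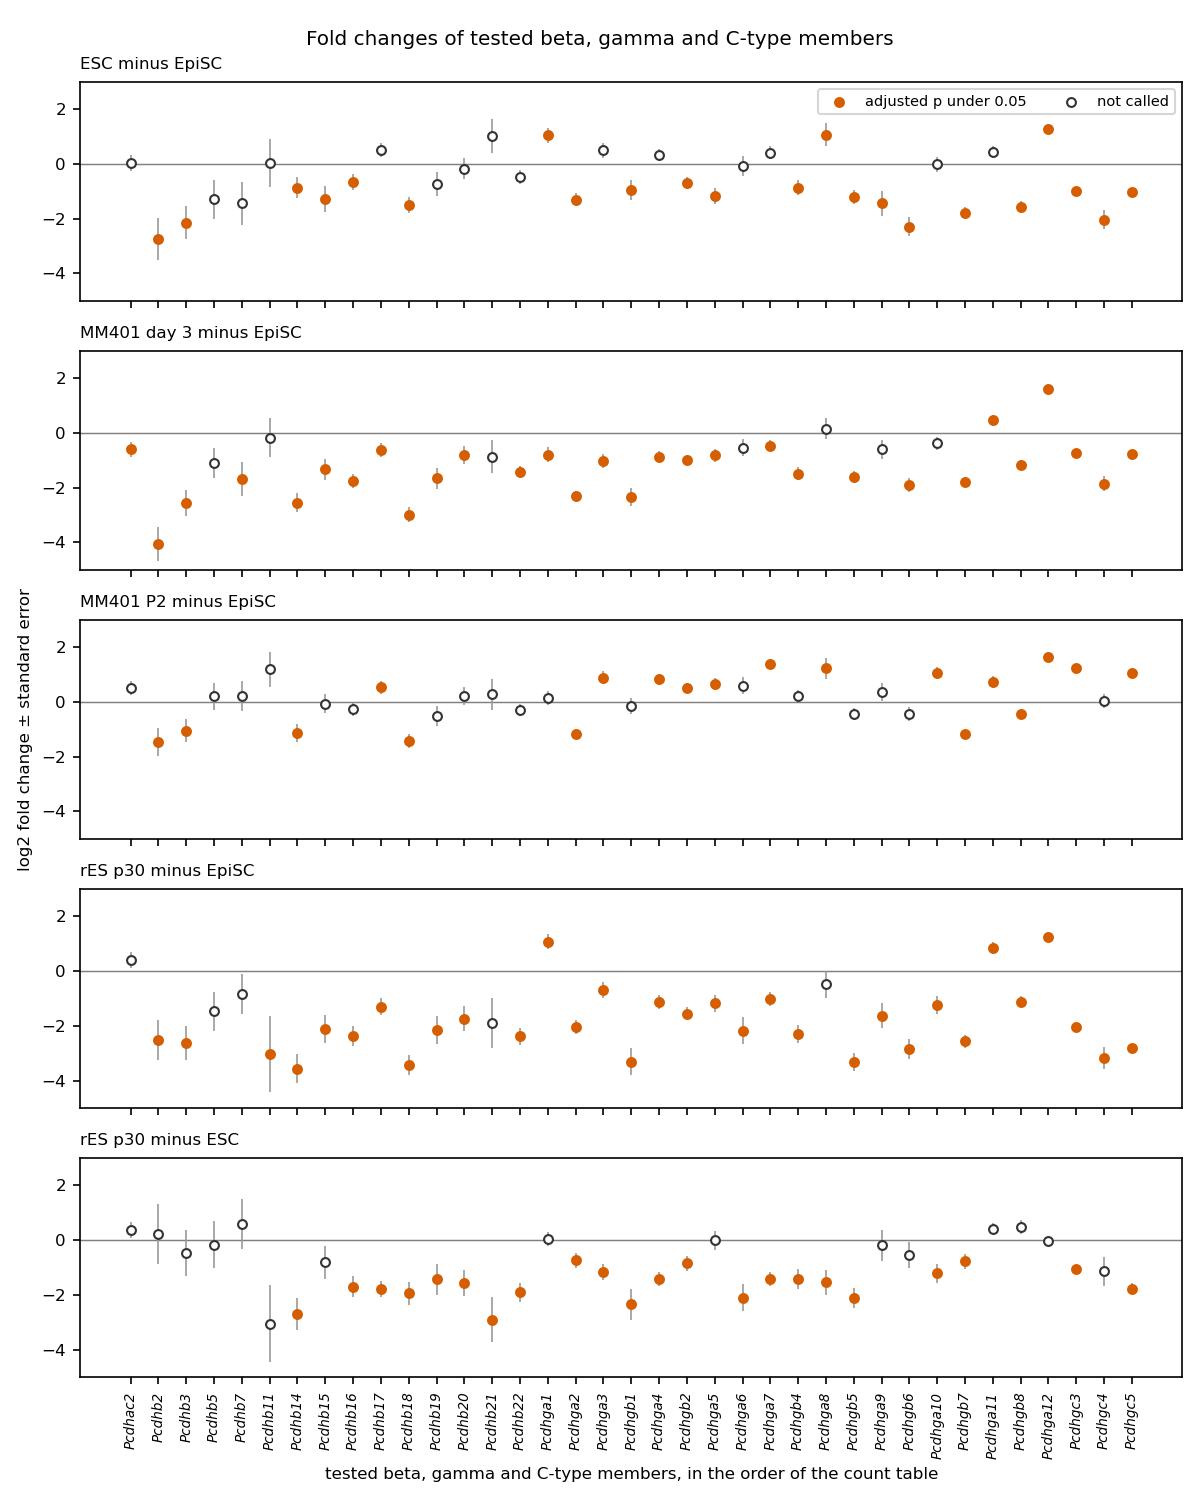
Log2 fold change with its standard error for each tested beta, gamma and C-type gene, in the order of the count table, in 5 comparisons. Filled points had an adjusted p under 0.05. Pcdhga12 is above 0 in each of the 4 comparisons with EpiSC (1.22 to 1.65), while most other members are below 0 in all but MM401 P2.

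The reverted line at passage 30 had the lowest levels next to its relative without MM401. Against EpiSC, 36 of 44 members fell and 3 rose, where 38.3% of all tested genes fell and 38% rose, and 28 of the 35 without the EpiSC-only genes fell with the same 3 rising. All 7 gamma-B genes fell (-3.32 to -1.12), as did 11 of 14 beta and 8 of 12 gamma-A genes. Pcdhgb6 fell by 2.86 ± 0.36 (adjusted p = 1.22e-06), Pcdhgb7 by 2.58 ± 0.23 (adjusted p = 3.8e-13) and Pcdhgb2 by 1.56 ± 0.24 (adjusted p = 3.13e-07). The median over the 35 was -2.05, against -0.02 over all tested genes. Pcdhgc3 fell by 2.05 ± 0.07 (adjusted p = 1.28e-26), Pcdhgc5 by 2.83 ± 0.17 (adjusted p = 2.75e-18) and Pcdhgc4 by 3.19 ± 0.41 (adjusted p = 6.09e-09). Pcdhac2 differed by 0.40 ± 0.29 (adjusted p = 0.212). The 3 that rose were Pcdhga12 (1.22 ± 0.18, adjusted p = 1.47e-07), Pcdhga1 (1.07 ± 0.27, adjusted p = 0.000491) and Pcdhga11 (0.84 ± 0.21, adjusted p = 0.000423). Fibroblast markers fell in the same comparison, 18 of 20 with 0 rising by edgeR, by a median of -1.97 on the log2 scale. Their part in the lower members was not tested.

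Against ESC, 22 of the 44 members were lower in rES passage 30, where 35.8% of all tested genes were lower and 35.3% higher. By edgeR 0 were higher, 1 (Pcdhga11) was higher at an unadjusted p under 0.05, and 0 were higher by DESeq2. Pcdhgc3 fell by 1.06 ± 0.07 (adjusted p = 6.92e-16) and Pcdhgc5 by 1.78 ± 0.20 (adjusted p = 1.56e-10). Pcdhb14, a beta gene, was at 1.18 and 0.918 CPM in ESC and 0.171 and 0.146 in rES passage 30 and fell by 2.70 ± 0.59 (adjusted p = 9.76e-05). Pcdhgb5 fell by 2.12 ± 0.38 (adjusted p = 5.46e-06) and Pcdhb21 by 2.90 ± 0.81 (adjusted p = 0.00173). The genes that were above EpiSC in both cell types did not differ beyond their spread: Pcdhga12 by -0.03 ± 0.16 (adjusted p = 0.873) and Pcdhga1 by 0.04 ± 0.25 (adjusted p = 0.899). The alpha genes were near 0 in both groups and 0 of 7 passed. Of the 20 fibroblast markers, 19 fell in the same comparison and 1 rose, with a median of -1.52, and their part in the lower members was not tested.

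Within the reverted lines the members changed less. From passage 6 to passage 30, 6 of 44 fell (Pcdhga2, Pcdhgb1, Pcdhga7, Pcdhgb7, Pcdhgc3 and Pcdhgc5), close to the 14.4% of all tested genes that fell, while 11.3% rose. In a fit without the MM401 day 3 and P2 libraries 10 fell. By edgeR 0 members rose, 0 at an unadjusted p under 0.05 and 0 by DESeq2. Pcdhgc3 went from 33.9 and 34.8 CPM to 22.4 and 20.8 and fell by 0.67 ± 0.08 (adjusted p = 6.25e-09), and Pcdhgc5 fell by 1.16 ± 0.21 (adjusted p = 4.19e-05). Pcdhgb1 fell by 1.72 ± 0.61 (adjusted p = 0.0316), a call lost without rES passage 6 replicate 2 (0.521), rES passage 30 replicate 1 (0.115) or rES passage 30 replicate 2 (0.133, all adjusted p). Pcdhga7 fell by 0.88 ± 0.28 (adjusted p = 0.0152), lost without rES passage 6 replicate 2 or rES passage 30 replicate 1 (adjusted p = 0.112 and 0.177). Pcdhgb7 fell by 0.91 ± 0.27 (adjusted p = 0.0101), lost without rES passage 6 replicate 1 or rES passage 30 replicate 1 (adjusted p = 0.198 and 0.146). Of all calls among tested genes, 43.9% were rises, against 33.3% with total counts and 54.3% with relative log expression size factors. All 20 fibroblast markers fell as well, with a median log2 change of -1.07, and their part was not tested.

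Between rES passage 30 without and with MM401, 0 of the 44 members were higher and 0 lower by edgeR, where 10.4% of all tested genes were higher and 9.3% lower. At an unadjusted p under 0.05, 0 were higher and 2 lower (Pcdhb7 and Pcdhgc5), and DESeq2 called 0 in either direction. Pcdhgc3 differed by -0.17 ± 0.09 (adjusted p = 0.164), Pcdhga12 by -0.24 ± 0.17 (adjusted p = 0.344) and Pcdhac2 by -0.18 ± 0.29 (adjusted p = 0.74). Precision limits these comparisons: the standard error was 0.25 for Pcdhga1 and 0.69 for Pcdhgb1, and a difference of 0.88 in Pcdhgb1 did not pass (adjusted p = 0.423). Kmt2a itself, whose protein MM401 inhibits, fell by 0.55 ± 0.05 without the inhibitor (adjusted p = 5.61e-11).

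**Figure D5:**
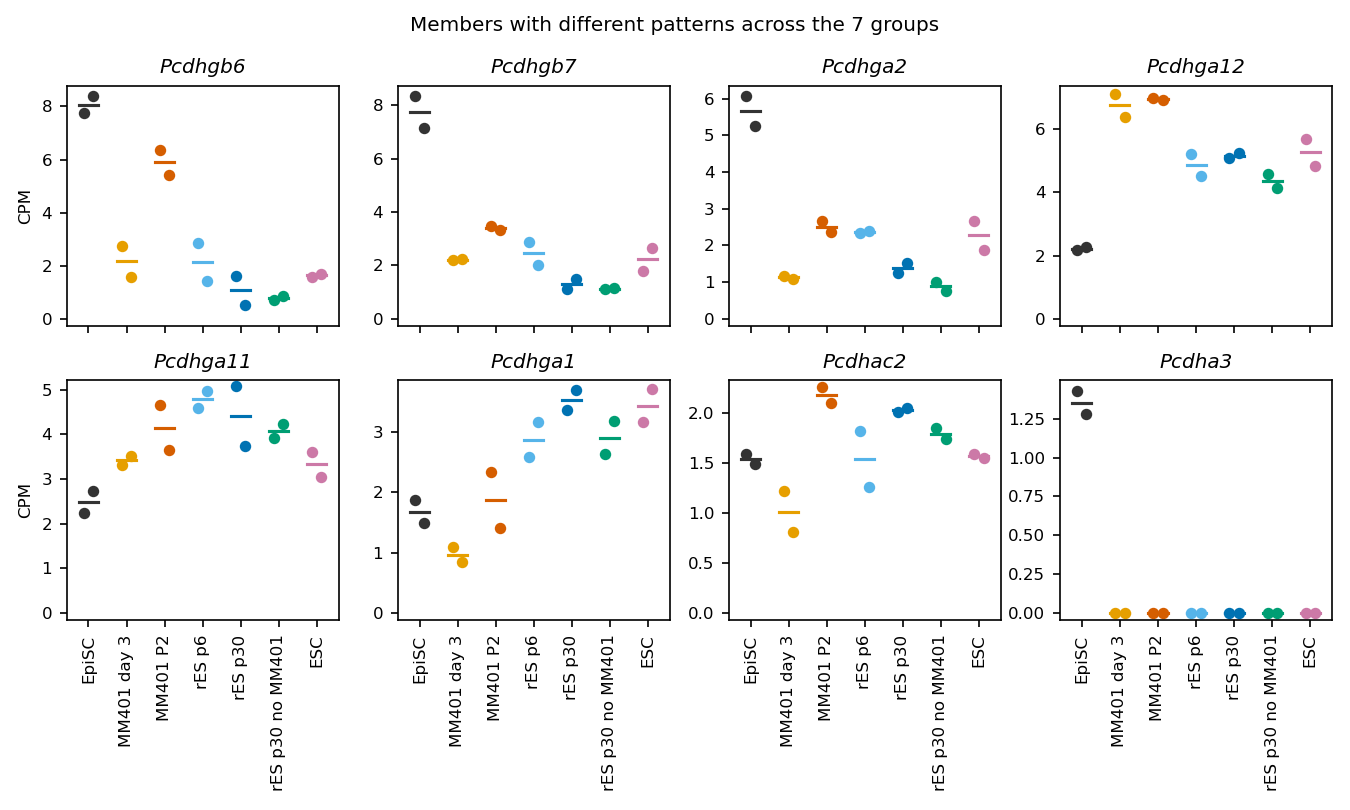
CPM of 8 members in each library of the 7 groups, with a bar at each group mean. Pcdhgb6, Pcdhgb7 and Pcdhga2 are highest in EpiSC, Pcdhga12 is lowest there (2.22 CPM against 4.36 to 6.95), Pcdhac2 stays between 0.806 and 2.25 CPM, and Pcdha3 has counts in EpiSC alone.

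Neighbours in the table could differ in pattern. Pcdhga11 and Pcdhga12 stood at their lowest mean in EpiSC (2.48 ± 0.34 and 2.22 ± 0.0765 CPM), with Pcdhgb8 between them at its highest mean there (4.55 ± 0.426 CPM). For Pcdhga12 the order of group means ran from MM401 P2 (6.95 CPM) and MM401 day 3 (6.75), which did not differ beyond their spread, through ESC, rES passage 30 and rES passage 6 (5.26, 5.17 and 4.86) and rES passage 30 without MM401 (4.36) to EpiSC (2.22). Pcdhga11 ran in another order, with rES passage 6 on top at 4.79 CPM and ESC and MM401 day 3 at 3.33 and 3.42. Pcdhga1 was lowest in MM401 day 3 (0.97 CPM) and highest in rES passage 30 (3.53) and ESC (3.44). All 3 lie under antisense exons in the annotation, as do Pcdhga8 and, with other patterns, Pcdhga7, Pcdhga10, Pcdhgb7 and Pcdhgc3. Among the 12 gamma-A genes 6 do. Every member higher than EpiSC in ESC, at MM401 day 3 or in rES passage 30 was among these genes. Of those higher at MM401 P2, Pcdhb17, Pcdhga3, Pcdhga4, Pcdhgb2, Pcdhga5 and Pcdhgc5 were not. The part of antisense reads in the rises was not tested. The 3 comparisons of MM401 day 3, MM401 P2 and rES passage 30 with EpiSC, and that of ESC, share the EpiSC libraries, so a chance deviation there would enter all 4 alike.

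More members were detected in EpiSC than elsewhere. At least 1 count was seen for 55 and 57 of the 59 in the EpiSC libraries, for 44 and 47 in MM401 day 3 and for 49 and 48 in MM401 P2, and for 38 to 45 in the reverted libraries and 43 and 46 in ESC. Over all 24015 genes, 18454 and 18417 had a count in EpiSC, 18665 and 18745 in MM401 day 3 and 19094 and 19185 in MM401 P2. The reverted libraries had 17972 to 18445 and ESC 18155 and 18073. Thinned in expectation to the shallowest library, MM401 day 3 would show 40.5 and 41.7 members and EpiSC 54.8 and 56.8.

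The counts of calls for the lists that follow can be set beside all tested genes, of which 37% rose and 37.5% fell in ESC against EpiSC, 38.7% and 37.9% at day 3, 38% and 38.3% in rES passage 30, and 37.5% and 33.3% from day 3 to passage 2. Genes known to act on the clusters moved both ways in some comparisons and mostly in a single direction in others. Of 29 tested regulators (CTCF and cohesin subunits, DNA methylation and heterochromatin factors), 12 fell and 13 rose in ESC against EpiSC. At MM401 day 3, 13 fell and 15 rose. In MM401 P2, 20 fell and 6 rose against EpiSC (33.8% and 42.1% of all tested genes), and 22 fell and 3 rose against day 3. In rES passage 30, 6 fell and 17 rose against EpiSC. Against passage 6, 0 fell and 17 rose by edgeR (14.4% and 11.3% of all tested genes). Their part in the changes of the members was not tested. Dnmt3b, a de novo DNA methyltransferase, was at 566.6 CPM in EpiSC, 335.2 in ESC, 61.9 in MM401 day 3, 25.4 in MM401 P2 and 33.5 to 37.4 in the reverted groups. It fell by 3.19 ± 0.04 at day 3 (adjusted p = 7.76e-41) and by 0.76 ± 0.04 in ESC (adjusted p = 1.44e-20). Dnmt3a fell from 313.8 CPM in EpiSC to 72.2 at day 3 and 157.3 in ESC, while Dnmt3l, their catalytically inactive partner, rose from 13.95 CPM to 129.3 and 1071. Smchd1, a chromatin protein that represses clustered protocadherins, was at 156 CPM in EpiSC, 74.9 at day 3 and 68.6 in ESC. Ctcf, the boundary factor that loops promoters to enhancers, ranged from 147 to 233.9 CPM. Kmt2a was at 147.8 CPM in EpiSC, 103.1 at day 3 and 122.5 in MM401 P2.

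Genes beside the clusters were tested as well. Of 23 tested neighbours, 12 fell and 3 rose in ESC against EpiSC, 11 fell and 4 rose at day 3, and 18 fell and 2 rose in rES passage 30. The largest called changes by adjusted p were in Pcdh1, a protocadherin outside the clusters, at 65.2 CPM in EpiSC and 2.70 to 9.81 in the other groups, and in Arap3, a GTPase-activating protein, at 48.4 CPM against 1.77 to 3.99. Taf7, a subunit of the general transcription factor TFIID that lies between the beta and gamma genes, kept between 85.4 and 131.3 CPM, rose at day 3 (0.62 ± 0.04, adjusted p = 5.53e-16) and did not pass in ESC (adjusted p = 0.0602). Of the 21 signalling partners of protocadherin tails and their processing enzymes, 9 rose and 9 fell in ESC and 9 rose and 8 fell at day 3. Cyfip2, a subunit of the WAVE complex that binds such tails, fell from 74.5 CPM in EpiSC to 34.1 in ESC (-1.13 ± 0.06, adjusted p = 3.04e-19). Of 12 tested protocadherins outside the clusters, 4 rose and 4 fell in ESC, 2 rose and 8 fell at day 3, and 10 rose and 0 fell from day 3 to passage 2 by edgeR. Pcdh18 was at 19.3 CPM in EpiSC, 4.25 at day 3 and 17.1 in MM401 P2.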

How the data were processed

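RNA sequencing was run on 14 libraries, and the values are whole-number counts of reads per gene in the authors' deposited table of the series. Per the submitters' processing notes, TopHat2, Subread and DESeq were used with the mouse build mm9, with versions and settings not given in the sources used. Of the table's columns, 2 matched no sample and were not used, and 27 gene names had been read as dates. Genes were tested in R 4.3.3 with edgeR 4.0.16 and limma 3.58.1, in 1 quasi-likelihood fit to all 14 libraries with TMM scaling, the default filter on low counts and no covariate, two-sided, with Benjamini-Hochberg adjustment within each comparison at 0.05. CPM values are counts scaled to the library total times its TMM factor. DESeq2 1.42.0, other scalings, no filter, a fit of the compared libraries, a replicate block, leaving out each library and equal depth were the alternatives. The fit was tested on simulated data for MM401 day 3 against EpiSC (15741 genes, 200 changed): it called 83.7% of genes raised 2-fold, 87.8% of those lowered to 0.5 of their level and 100% of 4-fold changes either way, and 2.67% of its calls were false. In the measured counts, 38.7% of tested genes rose and 37.9% fell at MM401 day 3 against EpiSC. How the fit performs with that share of changed genes was not tested. There were 2 libraries a group, which the series text calls biological duplicates. The spread behind each p-value was estimated over the duplicates of all 7 groups, not from the compared groups alone. It covers no variation beyond that between duplicates. Of tested genes with moderate counts, 10.7% lay over 2-fold apart between duplicates in MM401 day 3 and 7.57% in MM401 P2. In the other groups 3.41% to 4.7% did. The replicate numbers were not used to pair libraries.

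The members and gene lists were chosen with earlier results of these data known. Members given with full statistics were chosen among the 5 C-type genes (Pcdhac1 could not be tested), the 10 members of highest mean CPM and, in each comparison, up to 4 called members in each direction of largest log2 change among those at 0.5 CPM or more of the unadjusted total in either group. For lists, counts were given with up to 4 called genes of smallest adjusted p, and Ctcf, Smchd1, Dnmt3a, Dnmt3b, Dnmt3l, Kmt2a and Taf7 always. Intervals are exact at 95% and, like the floor of 3 counts, cover counting error only. Gene structure came from GENCODE M21, a build other than that of the counts, so no coordinates are given.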

Additional observations from a re-analysis of the deposited data

Results flagged for a closer look

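For 8 members MM401 day 3 and MM401 P2 differed from EpiSC in opposite directions, each past the threshold, and the direct comparison of passage 2 with day 3 (edgeR's quasi-likelihood test) passed as well. Both comparisons share the EpiSC libraries. Pcdhgc3 changed by -0.72 at day 3 and 1.23 at passage 2, a difference between them of 1.96 on the log2 scale (adjusted p = 8.37e-30). Pcdhgc5 changed by -0.78 and 1.04, a difference of 1.82 (adjusted p = 2.98e-20). Among the gamma-A genes, Pcdhga3 changed by -1.04 and 0.87 (difference 1.91, adjusted p = 1.91e-10) and Pcdhga4 by -0.88 and 0.82 (difference 1.7, adjusted p = 1.53e-11). Pcdhga5 changed by -0.82 and 0.66 (difference 1.47, adjusted p = 2.12e-08), and Pcdhga7 by -0.47 and 1.37 (difference 1.85, adjusted p = 4.92e-13). The gamma-B gene Pcdhgb2 changed by -1 and 0.51 (difference 1.52, adjusted p = 4.71e-11), and the beta gene Pcdhb17 by -0.63 and 0.53 (difference 1.15, adjusted p = 2.67e-06). The day 3 fall of Pcdhga7 and the passage 2 rise of Pcdhgb2 are calls that some alternatives lose. Over the same interval all 20 fibroblast markers rose by a median of 1.53, and their part in these differences was not tested.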

How the results depend on the processing

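Over 85 results for named members and 1826 values under alternatives, 1777 kept direction and call, 49 kept direction but lost the call and 0 reversed. Members higher at MM401 day 3 than in EpiSC were 1 in place of 2 with total counts, with DESeq2 and at equal depth. Members higher in ESC than in EpiSC were 7 in place of 3 in a fit of those 4 libraries. In a fit without the MM401 day 3 and P2 libraries, chosen after seeing the data as was equal depth, 1 member in place of 0 was higher in rES passage 30 than in ESC, 10 in place of 6 fell from passage 6 to 30, and 1 in place of 0 was lower without MM401. The cause was not tested. Scaling by total counts moved the median of all tested genes by -0.17 to -0.15 on the log2 scale in the 4 comparisons with EpiSC.

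Leaving out each library in turn gave 2 to 4 members higher and 20 to 26 lower in ESC than in EpiSC, and 1 to 2 higher and 30 to 36 lower at MM401 day 3, with 1 higher without EpiSC replicate 1 or MM401 day 3 replicate 2. MM401 P2 against EpiSC gave 10 to 13 higher and 12 to 16 lower, and against day 3 it gave 33 to 36 higher and 0 to 1 lower (1 without MM401 day 3 replicate 2). Reverted cells at passage 30 had 3 higher and 33 to 38 lower against EpiSC, 0 to 1 higher (1 without rES passage 30 replicate 2) and 20 to 24 lower against ESC, and 0 higher and 4 to 8 lower against passage 6 (4 without rES passage 6 replicate 1). Without MM401 both counts were 0 each time.

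With the replicate block, 3 members were higher and 26 lower in ESC, 2 and 36 at MM401 day 3, 12 and 15 at MM401 P2, and 36 and 0 between those times. The block gave 3 higher and 37 lower in rES passage 30 against EpiSC, 0 and 22 against ESC, 0 and 7 against passage 6, and 0 and 0 without MM401, and it changed no call of a named member. Deviations of same-numbered libraries from their group means correlated by -0.019 to 0.04 over all tested genes. With so few libraries, and counting noise in each gene, this cannot show whether same-numbered libraries were handled together. Depth limits the alpha genes and the lower beta genes outside EpiSC, which rest on few counts.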
